A study of Hevea brasiliensis with 21 samples.

Results

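The latex of ethephon-treated rubber trees of clone PB217 was compared between 3 trees with Tapping Panel Dryness (TPD) after 36 months and 3 healthy trees after 1 month. Ethephon is a compound that releases ethylene in plant tissue, and the sample titles give 12 applications a year for both groups. The comparison rests on the 28798 of 86941 contigs of the PB 260 reference transcriptome that reached at least 1 CPM (read pairs per 1000000 counted in the library) in at least 3 of the 6 libraries. The series holds 21 latex libraries, 12 of clone PB217 and 9 of clone PB 260. Besides the dry month 36 trees and the month 1 trees, 3 untreated PB217 trees at month 36 and 3 untreated PB217 trees at month 1, all labelled healthy, were used to set a change of the same span of months beside the main one. All of these trees are recorded as wild type. The records also state "no treatment" for each library, so ethephon and months come from the titles alone, and the ethephon dose and the extent of dryness of the PB217 trees are not given in the sources used here. The replicates are described as biological. The dry trees were harvested 14 days before the month 1 trees, so dryness, months and harvest day cannot be told apart.

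Laticifers are the bark cells that make natural rubber, and the latex collected at tapping is their cytoplasm. Ethylene and jasmonate are the hormones best known to act on laticifers: ethylene raises latex flow and metabolism, and jasmonate is formed from plastid lipids after wounding and leads to laticifer differentiation. Rubber is a polymer of isoprene units that come largely from the mevalonate pathway, which also feeds sterol synthesis. TPD is a disorder of tapped trees in which part or all of the cut no longer yields latex.

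The 6 libraries held 18394040 to 21496388 counted pairs in dry trees and 18875807 to 21069523 in month 1 trees. The month 1 libraries were alike, with correlations of log2 CPM across contigs of 0.970 to 0.984, and the dry libraries varied more among themselves, at 0.917 to 0.965. Dry tree 2 stood apart, with the highest value of the 12 PB217 libraries on both principal components, and values without it are those of the fit that tested the same contigs. Between 95.4 and 97.0% of reads were mapped in dry trees and 97.3 to 97.7% in month 1 trees, and 19.1 to 22.5% against 22.3 to 24% of reads were removed for hitting several contigs. The latex label was checked with a list of 4 contigs, which did not behave alike. CL1Contig7138 of HbTCTP1, a translationally controlled tumour protein of latex, had 1456 to 3170 CPM in dry trees and 1582 to 3021 CPM in month 1 trees. The contigs of the latex allergen Hev b 4, CL10238Contig1 and CL10238Contig2, were lower in each dry tree than in each month 1 tree. Their log2 changes were -2.75, which was called, and -1.99, which was not. Of the 6 photosynthesis contigs held as signs of green bark cells, 5 had a read pair and 1 was tested, and their summed level was 2.53 to 2.78 CPM in dry trees and 1.28 to 2.22 CPM in month 1 trees. The part of green bark cells in the results was not tested.

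**Figure D1:**
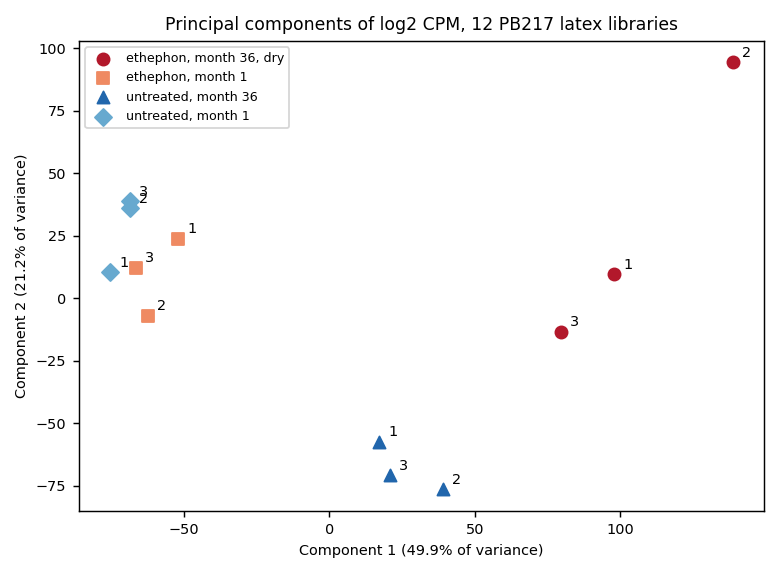
Principal components of log2 CPM over the 12 PB217 latex libraries, with the first on the horizontal axis (49.9% of variance) and the second on the vertical axis (21.2%), 1 point per library and numbers for trees. The 3 dry trees lie farthest to the right and dry tree 2 at the upper right corner, while both month 1 groups lie together on the left.

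About as many contigs were higher as lower in the dry trees. Of the 28798 contigs, 3469 (12%) rose and 3474 (12.1%) fell at an adjusted p under 0.05 from edgeR's quasi-likelihood test, together 24.1%. The larger changes were mostly rises, with 806 contigs up and 582 down by at least 4-fold and 118 up and 5 down by at least 32-fold. All 3 dry libraries lay above all 3 month 1 libraries in 3415 of the contigs that rose and below them in 3470 of those that fell, where the same holds for 22.3% and 22.6% of all contigs tested. Within the contigs that rose without overlap, dry tree 2 was the highest of the 6 in 2225, dry tree 1 in 700 and dry tree 3 in 490. The median level over the 6 libraries was 12.9 CPM for contigs that fell, 6.36 CPM for those that rose and 6.15 CPM for those not called, at median lengths of 1168, 1021 and 1064 bases.

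The count of calls depended on single trees. Without month 1 tree 1, 2 or 3 the calls numbered 3614, 3345 and 2364, and without dry tree 1 they numbered 4033. Without dry tree 2 and with the same contigs tested, a setting added once the data had been seen, 3846 contigs were higher and 3998 lower, and 6335 of the 6943 calls were among them. Scaling by library totals alone in place of TMM (trimmed mean of M-values) moved the median of all contigs by 0.56 on the log2 scale, to 0.59 in place of 0.03, and gave 9445 higher and 1372 lower contigs, 87.3% higher in place of 50%. All 3469 contigs that rose kept their call under that scaling, 1370 of the 3474 that fell kept it, and 0 contigs turned to the opposite call, so the changes below are relative to the TMM scale. Since latex was sequenced in bulk, fewer cells of a type and less RNA per cell cannot be told apart.

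**Figure D2:**
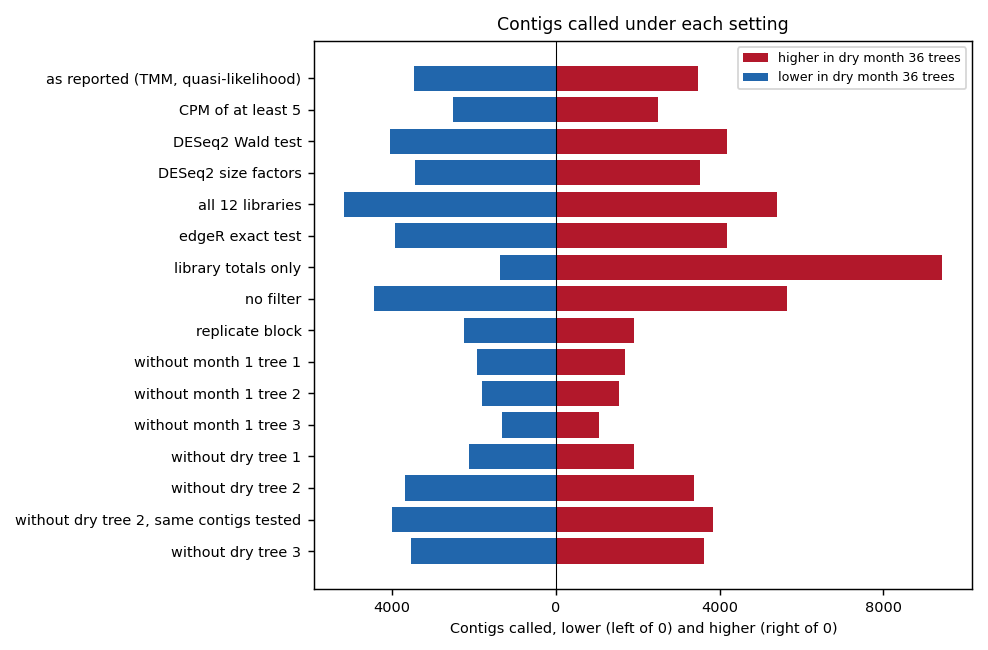
Number of contigs called under each setting, as bars to the right of 0 for contigs higher and to the left for contigs lower in dry month 36 trees than in month 1 trees. Higher and lower calls are balanced in most settings, and scaling by library totals only gives 9445 higher and 1372 lower.

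An informative annotation was held for 263 of the tested contigs, 91 of which rose and 27 of which fell. They come from 2 sources. The first is the beginning of the annotation by contig name, of which 696 contigs were tested, 87 rising and 91 falling with a median log2 change of 0.05 against 0.03 for all contigs. The second is a part of a study list of contigs that ethephon raised in PB 260 trees, held for 173 contigs. Most of the strongly raised contigs named below come from that list, so how often a group of genes rose cannot be told apart from how its members were held.

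Regulators of ethylene and stress responses were among the strongest rises. CL8139Contig1, similar to ERF112, a member of the ethylene response factor family, had 35.5, 219 and 31.2 CPM in dry trees 1, 2 and 3, against 0.627, 0.497 and 0.406 CPM in the month 1 trees. The lowest dry tree was thus far above the highest month 1 tree, and dry tree 2 was well above the other dry trees. The log2 fold change was 7.53 (standard error, SE, of 0.93, edgeR adjusted p = 0.00123), and 6.01 without dry tree 2. CL1Contig16711 matches PTI6, a tomato activator of pathogenesis-related genes that binds the same kind of promoter element as ethylene response factors. It had 39.3, 109 and 29.2 CPM in dry trees and 0.338, 0.497 and 0.348 CPM in month 1 trees, a log2 fold change of 7.25 (SE 0.63, edgeR adjusted p = 0.000413), and 6.46 without dry tree 2. CL15202Contig1, similar to the auxin-induced protein AUX22, rose by 4.64 on the log2 scale, and by 3.88 without dry tree 2. A milder rise was seen for CL10676Contig1, similar to the dehydration-responsive element-binding protein 2C, with a log2 fold change of 0.94. All 4 tested contigs of the ethylene and auxin list rose, out of 8 on the list and beside 12% of all contigs, and 3 of them passed the filter on low levels only through the dry trees. The call of CL10676Contig1 was lost without month 1 tree 1, 2 or 3 (edgeR adjusted p = 0.111, 0.0709 and 0.12) and without dry tree 1 (0.0627).

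Other transcription factors ranged from near absence to strong expression. CL8780Contig3, similar to WRKY40, a pathogen-responsive WRKY factor in Arabidopsis, had 68.2, 151 and 78.5 CPM in dry trees, against 0.0483, 0.284 and 0.406 CPM in month 1 trees. Each dry tree was far above each month 1 tree, and the log2 fold change of 8.70 (SE 0.58, edgeR adjusted p = 0.000269) was 8.27 without dry tree 2 and 9.35 without month 1 tree 3. CL1Contig1432, similar to the zinc finger protein KNUCKLES, which represses stem cell genes in Arabidopsis flowers, rose by 7.33 on the log2 scale, and the zinc finger family contig CL12239Contig1 by 7.32, which was 6.02 without dry tree 2 and 8.24 without month 1 tree 2. CL10144Contig1 encodes lMYC5, a laticifer member of the MYC family through which jasmonate acts. Its levels were 232, 332 and 214 CPM in dry trees and 64.7, 95.3 and 55.2 CPM in month 1 trees, which do not overlap, with a log2 fold change of 1.86 (SE 0.29, edgeR adjusted p = 0.00319). CL1Contig10832, similar to the helix-loop-helix factor bHLH147, had 296, 424 and 250 CPM in dry trees, against 49.9, 77.2 and 52.7 CPM in month 1 trees, a log2 fold change of 2.44. Of 2 homeobox contigs of cluster CL1071, CL1071Contig3 rose by 1.39, with 519 to 580 CPM in dry trees and 178 to 248 CPM in month 1 trees. The other, CL1071Contig1, had 133 to 279 CPM in dry trees and 172 to 204 CPM in month 1 trees and was not called. Of 71 transcription factor contigs on the list 28 were tested, 19 rose and 0 fell, with a median log2 change of 1.65 beside 0.03 for all contigs, of which 12% rose and 12.1% fell. Of the 28, 11 passed the filter only through the dry trees, and of the other 17, 8 rose. Of the 14 held by contig name, 5 rose. The call of CL1071Contig3 was lost without month 1 tree 3 (edgeR adjusted p = 0.0546).

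**Figure D3:**
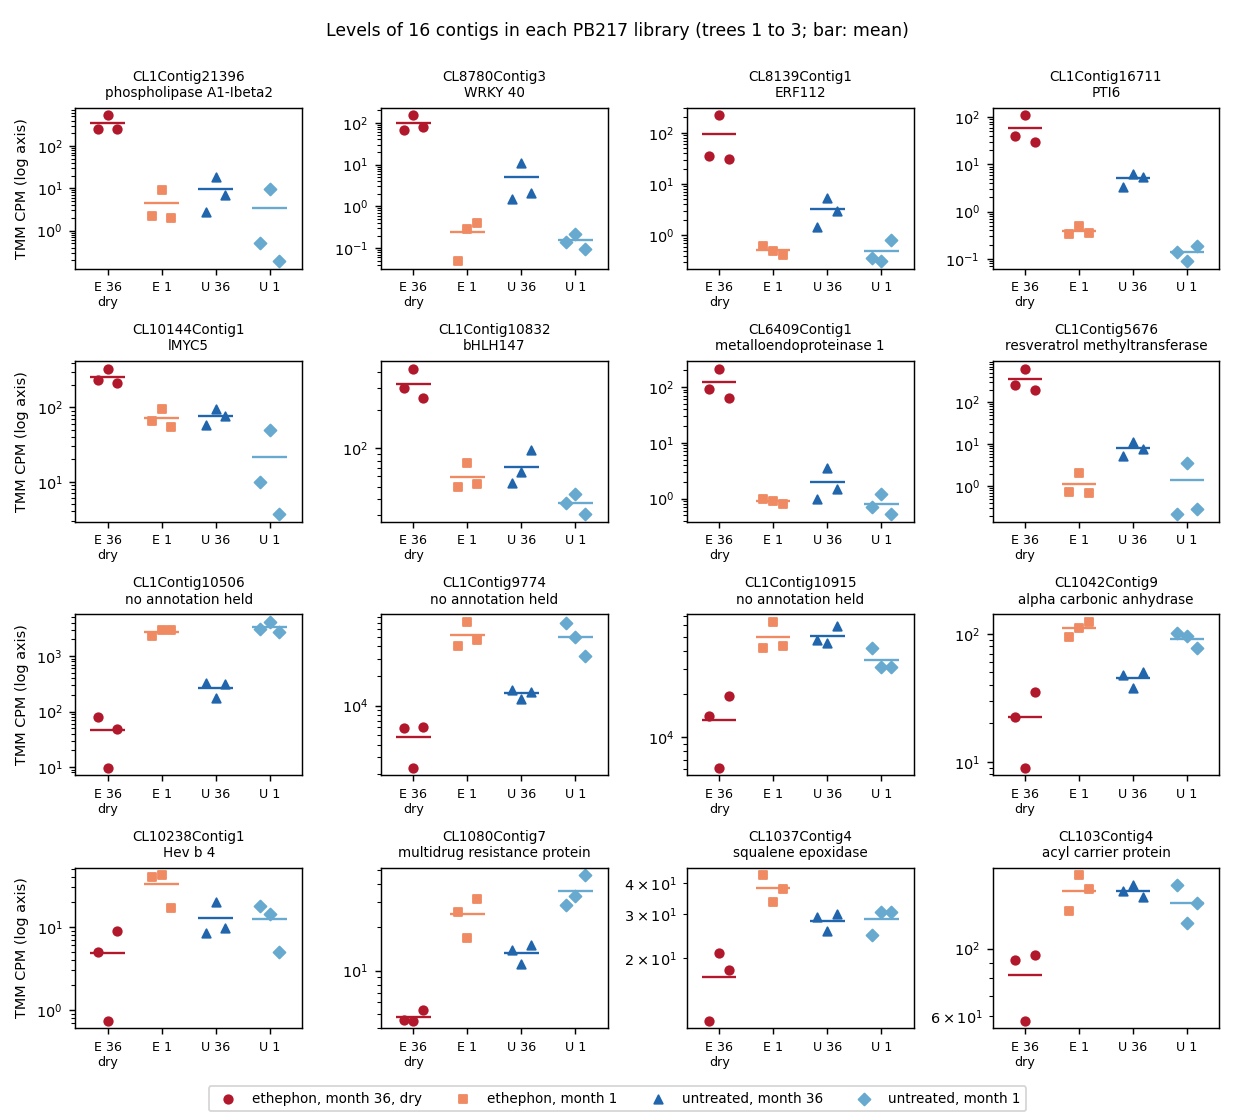
Level of 16 contigs in each of the 12 PB217 libraries on a log axis of TMM-normalized CPM, with 1 panel per contig, points for trees 1 to 3 and a bar at the mean. E and U stand for ethephon-treated and untreated and the number for the month. In the first 8 panels, from phospholipase A1-Ibeta2 to the methyltransferase, all 3 dry trees lie above all 3 month 1 trees, and in the other 8 they lie under them.

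Contigs for the first and the later steps of jasmonate synthesis rose, and the contig held for the lipoxygenase step did not pass the test. The pathway starts with the release of fatty acids from plastid lipids, which lipoxygenase oxidises and allene oxide synthase and allene oxide cyclase turn into the jasmonate ring. CL1Contig21396, similar to phospholipase A1-Ibeta2, an enzyme of the class that frees these fatty acids, had 252, 531 and 250 CPM in dry trees, against 2.22, 9.09 and 2.03 CPM in month 1 trees. The groups lay far apart, with a log2 fold change of 6.31 (SE 0.68, edgeR adjusted p = 0.000779) that was 7.34 without month 1 tree 2. Allene oxide synthase, CL1Contig911, had 1.74, 10.8 and 2.65 CPM in dry trees and 0.193, 0 and 0.174 CPM in month 1 trees, a log2 fold change of 5.22 (SE 0.93, edgeR adjusted p = 0.00515) that was 3.98 without dry tree 2. CL1Contig15155, similar to 4-coumarate--CoA ligase-like 9, which activates jasmonate precursors in Arabidopsis peroxisomes, rose by 5.0 on the log2 scale, to 3.98, 13.5 and 3.09 CPM in dry trees, against 0.241, 0.284 and 0.116 CPM in month 1 trees, and by 4.03 without dry tree 2. Allene oxide cyclase 3, CL10285Contig1, named here after its values were seen, had 1.95, 1.75 and 1.98 CPM in dry trees, against 0.386, 0.213 and 0.174 CPM in month 1 trees (log2 fold change of 2.81). All of these contigs were higher in each dry tree than in each month 1 tree. Lipoxygenase 6, CL1554Contig7, had 2.53, 2.79 and 1.5 CPM in dry trees and 3.04, 1.63 and 2.14 CPM in month 1 trees, with a log2 change of 0.00 (SE 0.35) that was not called. Among the 8 contigs of the list 6 were tested and 5 rose, with a median of 5.11 against 0.03 for all contigs and a background of 12% rising. Of the 6, 4 passed the filter only through the dry trees, and 1 of the 2 with a month 1 library at the minimum level rose.

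Enzymes of phenolic and defence metabolism rose from very low levels. CL1Contig5676, similar to trans-resveratrol di-O-methyltransferase, which forms the stilbene pterostilbene in grapevine, had 257, 632 and 194 CPM in dry trees and 0.724, 2.06 and 0.695 CPM in month 1 trees. Its log2 fold change was 8.33 (SE 0.68, edgeR adjusted p = 0.000341), and it was 7.67 without dry tree 2 and 8.98 without month 1 tree 2. CL8299Contig1, similar to a glucosyltransferase that attaches glucose to flavonoids, had 9.20, 40.1 and 4.72 CPM in dry trees and no pair in any month 1 tree. Against a floor of 3 pairs over the group, it was at least 350-fold higher in the dry trees, and at least 122-fold without dry tree 2. A basic glucan endo-1,3-beta-glucosidase, CL1Contig17062, of the class that cuts fungal wall glucans, had 1.04, 11 and 2.34 CPM in dry trees and no pair in month 1 trees, which makes it at least 93.2-fold higher, and at least 28.9-fold without dry tree 2. CL16849Contig1, similar to sigma factor binding protein 1, a partner of WRKY factors in Arabidopsis, rose by 6.08 on the log2 scale, and by 5.14 without dry tree 2. CL27275Contig1, similar to MLO-like protein 4, of a membrane protein family that powdery mildews of barley depend on, rose by 3.63, which was 2.96 without dry tree 2 and 4.77 without month 1 tree 2, and CL10325Contig1, similar to the resistance protein RPP13, by 1.23. Of 26 defence and wounding contigs 8 were tested, and 5 rose and 0 fell, beside 12% and 12.1% of all contigs. The median was 2.43 against 0.03 for all contigs, and 4 of the 5 that rose are from the ethephon list. Of the 8, 3 passed the filter only through the dry trees, and without dry tree 2 5 rose and 1 fell. The call of CL27275Contig1 was lost without month 1 tree 3 (edgeR adjusted p = 0.0509), and that of CL10325Contig1 without any 1 of the month 1 trees (0.0773, 0.0857 and 0.0569) or dry tree 1 (0.0658).

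Protein kinases moved in both directions, the rises being the larger. CL1Contig5861 and CL1Contig16293 match WNK4, a serine/threonine kinase, and may not be separate genes. CL1Contig16293 had 37.8, 273 and 30.4 CPM in dry trees, against 0.241, 0.426 and 0.348 CPM in month 1 trees. Dry tree 2 was far above the other dry trees, and the log2 fold change of 8.42 (SE 1.07, edgeR adjusted p = 0.00139) was 6.68 without it. That of CL1Contig5861 was 8.72, and 7.07 without dry tree 2. CL1Contig5001, similar to a kinase at the head of mitogen-activated protein kinase cascades, had 17.4, 52.2 and 9.04 CPM in dry trees and 0.116 to 0.193 CPM in month 1 trees, a log2 fold change of 7.38 that was 6.38 without dry tree 2. In the other direction, CL1084Contig3, a casein kinase II alpha subunit, which is the catalytic part of a kinase active in most cells, fell to 65.2, 38.2 and 72.5 CPM in dry trees, against 121, 114 and 122 CPM in month 1 trees (log2 fold change of -1.02, standard error 0.26, edgeR adjusted p = 0.0215). Of 50 kinase contigs 18 were tested, 11 rose and 2 fell, beside 12% and 12.1% of all contigs, and the falls were not called with library totals only. Of the 18, 9 passed the filter only through the dry trees, and of the other 9, 3 rose and 2 fell. The 9 from the ethephon list all rose, and of the 9 held by contig name 2 rose and 2 fell. The call of CL1084Contig3 was lost with library totals only (log2 fold change of -0.50), and without month 1 trees 1, 2 and 3 or dry tree 1 (edgeR adjusted p = 0.0638, 0.0596, 0.0876 and 0.0553).

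Several phosphatases that act against kinases or on inositol phosphates, a class that includes messengers of calcium release, rose. The 2 contigs that match protein phosphatase 2C 10 rose to similar degrees. CL1Contig4306 had 18.4, 56.1 and 16.3 CPM in dry trees and 2.36, 3.41 and 2.72 CPM in month 1 trees (log2 fold change of 3.44, standard error 0.50, edgeR adjusted p = 0.00225), and CL1Contig14251 rose by 3.58. Without dry tree 2 these changes were 2.63 and 2.72. Neither CL1018Contig13 nor CL1018Contig11, similar to serine/threonine phosphatase 7, was called, with log2 changes of 0.53 and 0.35. The 3 inositol phosphatase contigs rose, each with dry tree 2 far above the rest. CL18492Contig1, similar to FRA3 of Arabidopsis, had 5.76, 72.6 and 1.15 CPM in dry trees, against 0.338, 0.781 and 0.521 CPM in month 1 trees, and its log2 fold change of 5.65 (SE 1.41, edgeR adjusted p = 0.02) was 2.72 without dry tree 2. CL34416Contig1, similar to CVP2, a regulator of leaf veins in Arabidopsis, rose by 5.22, and by 3.13 without dry tree 2, while CL29955Contig1 rose by 6.75, which was 4.60 without dry tree 2 and 7.73 without month 1 tree 1. The lipid kinase contig CL10013Contig1, similar to FAB1C, had 6.09 to 10.1 CPM in dry trees and 10.2 to 15.1 CPM in month 1 trees and was not called, but without dry tree 2 it was called as lower (-0.76, edgeR adjusted p = 0.0409). Of 7 inositol phosphate contigs 5 were tested and 4 rose, beside 12% of all contigs. The last of the 4 was CL10344Contig2, similar to an inositol-pentakisphosphate kinase and named here after its values were seen, which rose by 1.3. Of the 5 tested, 3 passed the filter only through the dry trees, and of the other 2, 1 rose. Elsewhere, of 13 phosphatases 6 were tested and 2 rose, and of 18 calcium and calmodulin contigs 4 were tested and 1 rose, CL1072Contig2 by 1.67. Both phosphatases that rose are from the ethephon list, and of the 4 held by contig name 0 rose. Calls were lost without month 1 tree 2 for CL18492Contig1, CL34416Contig1, CL29955Contig1, CL1072Contig2 and CL10344Contig2 (edgeR adjusted p = 0.0774, 0.0624, 0.0532, 0.0915 and 0.12), without month 1 tree 3 for CL18492Contig1, CL34416Contig1, CL1072Contig2 and CL10344Contig2 (0.078, 0.0542, 0.103 and 0.149), without month 1 tree 1 for CL18492Contig1 (0.0736) and without dry tree 1 for CL10344Contig2 (0.0871).

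Proteases and ubiquitin ligases split by how they were held. CL6409Contig1, similar to metalloendoproteinase 1, a zinc protease first described in soybean, had 93.9, 214 and 63.8 CPM in dry trees and 0.965, 0.923 and 0.811 CPM in month 1 trees, a log2 fold change of 7.10 (SE 0.54, edgeR adjusted p = 0.000291), and 6.45 without dry tree 2. CL6558Contig2, similar to the ubiquitin ligase SHPRH, which marks proteins with ubiquitin, had 80.7, 139 and 27.6 CPM in dry trees and 9.07, 5.32 and 6.32 CPM in month 1 trees, a log2 fold change of 3.58 (SE 0.54, edgeR adjusted p = 0.00258), and 2.97 without dry tree 2. The puromycin-sensitive aminopeptidase contig CL9612Contig1 rose by 8.06, which was 6.55 without dry tree 2 and 8.85 without month 1 tree 3. CL15932Contig1, a U-box ligase, had 1.32 to 5.76 CPM in dry trees and no pair in month 1 trees and was at least 57.4-fold higher, and at least 29.3-fold without dry tree 2. Of 36 contigs 17 were tested, 8 of which passed the filter only through the dry trees. All 8 from the ethephon list rose, while of the 9 held by contig name 0 rose and 2 fell, and with library totals only 0 of the list fell. Over all contigs tested 12% rose and 12.1% fell. The chaperone CL1Contig14054, similar to the chloroplast DnaJ protein 20, had 39, 45.5 and 8.07 CPM in dry trees, against 0.0965, 0.0710 and 0.0579 CPM in month 1 trees (log2 fold change of 8.56). The small heat shock contig CL10627Contig1 fell to 3.69, 2.46 and 6.09 CPM in dry trees, against 13.0, 13.1 and 12.2 CPM in month 1 trees (log2 fold change of -1.65, standard error 0.32, edgeR adjusted p = 0.0071). Across 8 tested chaperones of 17, 2 rose and 1 fell, with a median of 0.17 against 0.03 for all contigs. Both that rose are from the ethephon list, and 1 of the 8 passed the filter only through the dry trees. Of the 6 held by contig name 0 rose and 1 fell, with a median of -0.16.

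The cell wall and reactive oxygen lists had 6 tested contigs each, and over all contigs tested 12% rose and 12.1% fell. CL1Contig656, similar to arabinogalactan peptide 16, had 2.11, 23.5 and 1.5 CPM in dry trees and 0.0579 to 0.0965 CPM in month 1 trees, and its log2 fold change of 6.81 was 4.46 without dry tree 2. CL9430Contig1, similar to ECERIFERUM 1, which makes wax alkanes in Arabidopsis, rose by 6.17, which was 5.56 without dry tree 2 and 5.48 without month 1 tree 1. Beta-galactosidase 3, CL101Contig18, had 116, 195 and 121 CPM in dry trees, against 203, 149 and 244 CPM in month 1 trees. These groups overlap through dry tree 2, and the contig was not called, but it was called as lower without that tree (-0.74, edgeR adjusted p = 0.0452). Of 19 cell wall contigs 6 were tested and 3 rose, all 3 from the ethephon list, while 4 of the 6 passed the filter only through the dry trees. CL6443Contig3, similar to polyamine oxidase 1, which breaks down polyamines and forms hydrogen peroxide, had 9.33, 9.84 and 4.68 CPM in dry trees and 0.116 to 0.338 CPM in month 1 trees (log2 fold change of 4.98). The superoxide-forming respiratory burst oxidase CL575Contig5 had 4.60 to 14.4 CPM in dry trees and 4.4 to 8.06 CPM in month 1 trees, and the ascorbate synthesis contig CL1032Contig2, a GDP-L-galactose phosphorylase, had 77.0, 134 and 62.5 CPM in dry trees and 57.1, 41.7 and 54.2 CPM in month 1 trees, and neither was called. Without dry tree 3 CL1032Contig2 was called as higher (1.11, edgeR adjusted p = 0.0239). Of 14 reactive oxygen contigs 6 were tested, and 2 rose and 0 fell (2 and 1 without dry tree 2). Of these 6, 3 are from the ethephon list and 1 passed the filter only through the dry trees. Among the 3 held by contig name 1 rose. Of 18 oxidases 3 were tested and 1 rose, the oxygenase CL10679Contig1 by 1.01. That last call was lost without month 1 tree 1 (edgeR adjusted p = 0.0965), month 1 tree 3 (0.121) or dry tree 1 (0.0559).

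Several of the contigs that took most read pairs fell in the dry trees. The 10 contigs of highest mean level hold no annotation here, and each had a lower mean in dry trees than in month 1 trees. CL1Contig10398, the first of them, took 2.18 to 5.20% of the counted pairs in dry trees and 7.62 to 10.1% in month 1 trees. On the TMM scale it had 29582, 15147 and 46344 CPM in dry trees and 77428, 135986 and 94861 CPM in month 1 trees. The groups do not overlap, but the log2 fold change of -1.76 (SE 0.72) was not called (edgeR adjusted p = 0.1). CL1Contig10915, the next, had 14075, 6157 and 19473 CPM in dry trees, against 41497, 63640 and 43454 CPM in month 1 trees, and was not called either (log2 change of -1.90, edgeR adjusted p = 0.0554). CL1Contig9774 fell to 5940, 2338 and 6037 CPM in dry trees, against 40482, 71348 and 46266 CPM in month 1 trees, a log2 fold change of -3.46 (SE 0.66, edgeR adjusted p = 0.00695). In all 5 of the 10 were called, the others being CL1Contig10705 (-2.28), CL1Contig9792 (-2.29), CL1Contig10370 (-1.43) and CL1Contig11005 (-1.75). Without dry tree 2, 7 of the 10 were called, with CL1Contig10915 (-1.56, edgeR adjusted p = 0.024) and CL1Contig10119 (-1.11, 0.0412) besides these 5, and CL1Contig10915 was also called without dry tree 3 (-2.23, 0.0381). In 8 of the 10 all 3 dry trees lay below all 3 month 1 trees, as in 22.6% of all contigs tested, of which 12.1% were called lower. The calls other than that of CL1Contig9774 were each lost without month 1 tree 1, 2 or 3 and without dry tree 1, with adjusted p of 0.0524 to 0.144 from edgeR. Together the 10 contigs held 5.26 to 12.3% of pairs in dry trees and 21.5 to 28.3% in month 1 trees.

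Some of the deepest falls were in contigs with no annotation held. CL1Contig10506 had 79.0, 9.75 and 49.3 CPM in dry trees, against 2278, 2992 and 2968 CPM in month 1 trees, so that the highest dry tree was far below the lowest month 1 tree. Its log2 fold change was -5.90 (SE 0.74, edgeR adjusted p = 0.00129), and -6.51 without dry tree 1. CL29047Contig1 fell to 0.829, 0.648 and 1.28 CPM in dry trees, against 31.1, 44.6 and 39.2 CPM in month 1 trees, a log2 fold change of -5.39 (SE 0.31). CL1Contig2528 fell to 3.81, 4.73 and 2.91 CPM in dry trees, against 78.7, 74.4 and 122 CPM in month 1 trees. For CL29047Contig1 and CL1Contig2528 the dry trees were alike, and for CL1Contig10506 dry tree 2 was well below the others. The same was seen for CL1Contig14745, which fell to 6.30, 0.324 and 2.69 CPM in dry trees, against 103, 132 and 132 CPM in month 1 trees (log2 fold change of -5.32, and -6.36 without dry tree 1). Among the unannotated rises, CL12200Contig2 had 35.5, 36.1 and 45.8 CPM in dry trees and 0.193, 0.142 and 0.116 CPM in month 1 trees, a log2 fold change of 7.95 (SE 0.31, edgeR adjusted p = 1.59e-05). CL12200Contig1 of the same cluster had 18.9 to 22.7 CPM in dry trees and 2 pairs in the month 1 libraries, both in tree 1, a ratio of 536 with a 95% exact counting interval of 148 to 4427, which covers counting error only.

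Among annotated contigs, several membrane transporters fell. CL1080Contig7, similar to multidrug resistance proteins, ATP-driven pumps of the ABC class, had 4.56, 4.47 and 5.34 CPM in dry trees and 25.5, 16.8 and 31.6 CPM in month 1 trees. The log2 fold change was -2.36 (SE 0.27, edgeR adjusted p = 0.000959), and the dry trees hardly differed among themselves. CL1080Contig4, CL1080Contig1 and CL1080Contig2 of the same cluster fell by 1.79, 2.46 and 1.72 on the log2 scale, and they may be parts of 1 gene. CL10827Contig3, similar to TRANSPARENT TESTA 12, which carries flavonoids into the vacuole in Arabidopsis, fell to 4.52, 3.95 and 3.70 CPM in dry trees, against 25.4, 10.9 and 21.1 CPM in month 1 trees (log2 fold change of -2.23). The metal pumps CL1039Contig2 and CL1039Contig10 had log2 changes of 0.67 and 0.53 and were not called, but the first was called as higher without dry tree 3 (0.83, edgeR adjusted p = 0.0445). Of 52 transporter contigs 20 were tested, and 1 rose and 6 fell, beside 12% and 12.1% of all contigs. Of the 6 that fell, 4 are from cluster CL1080. The median of the list was -0.48, and 0.11 with library totals only, where 3 rose and 5 fell. In untreated trees 18 were tested, and 2 rose and 7 fell (median -0.35), beside 17.9% and 17.2% of contigs tested in both comparisons. CL1042Contig9, an alpha carbonic anhydrase, which interconverts carbon dioxide and bicarbonate, fell to 22.5, 9.04 and 35.3 CPM in dry trees, against 94.5, 112 and 124 CPM in month 1 trees (log2 fold change of -2.31, standard error 0.42, edgeR adjusted p = 0.00567). CL1023Contig1, similar to the precursor of phytosulfokine, a peptide that promotes cell growth, fell to 175, 109 and 247 CPM in dry trees, against 525, 767 and 515 CPM in month 1 trees (log2 fold change of -1.77).

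Squalene epoxidase, an enzyme of sterol synthesis, and acyl carrier protein, on which fatty acids are built, fell. CL1037Contig4 fell to 11.2, 21 and 18 CPM in dry trees, against 43.2, 33.7 and 38 CPM in month 1 trees, a log2 fold change of -1.19 (SE 0.26, edgeR adjusted p = 0.0115). CL1037Contig1 of the same cluster fell by 1.63. The vitamin E synthesis contig CL1409Contig4, similar to a tocopherol methyltransferase, had 2.24, 9.62 and 1.59 CPM in dry trees, against 3.43, 3.12 and 4.06 CPM in month 1 trees. Only dry tree 2 was above the month 1 trees, and without it the log2 change was -0.87 in place of 0.37 and was called. The terpene synthase contig CL10436Contig1 had 1.13 to 5.51 CPM in dry trees and 1.45 to 2.77 CPM in month 1 trees and was not called, but without dry tree 2, its lowest, it was called as higher (1.26, edgeR adjusted p = 0.0105). Of 15 isoprenoid and sterol contigs 4 were tested, and 0 rose and 2 fell, beside 12% and 12.1% of all contigs. Both that fell are of squalene epoxidase. Without dry tree 2 1 rose and 3 fell, with a median of -1.13 in place of -0.41. The median was 0.18 with library totals only, under which CL1037Contig4 was not called (log2 fold change of -0.64), as was the case without month 1 tree 3 (edgeR adjusted p = 0.0512).

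For fatty acid synthesis, CL103Contig4, an acyl carrier protein, had 91.9, 58.0 and 95.4 CPM in dry trees, against 133, 174 and 157 CPM in month 1 trees, a log2 fold change of -0.92 (SE 0.25, edgeR adjusted p = 0.029). CL103Contig7 fell by 1.40 and the acyl-CoA-binding contig CL10567Contig1 by 1.78. In untreated trees CL10567Contig1 fell as well (log2 fold change of -2.01), and CL103Contig7 was not called. Enoyl-ACP reductase, CL1061Contig12, and 3-oxoacyl-ACP synthase, CL10718Contig1, had log2 changes of 0.51 and 0.60 and were not called. Thus 3 of 5 tested contigs fell, out of 12 on the list and beside 12.1% of all contigs. The list median was -0.92, and -0.37 with library totals only. Of 14 sphingolipid contigs 4 were tested and 0 were called, while without dry tree 2 CL1003Contig3 was called as lower (-1.31, edgeR adjusted p = 0.0477) and with library totals only 1 contig was called as higher. With library totals only, CL103Contig4 and CL103Contig7 were not called (log2 fold changes of -0.37 and -0.85). Without month 1 trees 1, 2 and 3 or dry tree 1 the adjusted p from edgeR was 0.0539, 0.0949, 0.11 and 0.0647 for CL103Contig4 and 0.0541, 0.064, 0.0562 and 0.065 for CL10567Contig1.

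The 4 contigs of the latex list behaved unequally. CL10238Contig1, the major latex allergen Hev b 4, had 5.06, 0.745 and 9.0 CPM in dry trees, against 39.5, 42.2 and 17.1 CPM in month 1 trees, a log2 fold change of -2.75 (SE 0.69, edgeR adjusted p = 0.0207). CL10238Contig2 of its cluster had 20.7, 3.27 and 34.9 CPM in dry trees and 94.9, 97.2 and 41.1 CPM in month 1 trees, without overlap, and was not called (log2 change of -1.99, edgeR adjusted p = 0.0576), but it was called without dry tree 2 (-1.48, 0.00982) and without dry tree 3 (-2.65, 0.0296). The HbTCTP1 contigs CL1Contig7138 and CL1Contig21026 had log2 changes of 0.04 and 0.86 and overlapping groups, and without dry tree 2 CL1Contig21026 was called as higher (1.17, edgeR adjusted p = 0.0291). Of the 4, 0 rose and 1 fell, beside 12% and 12.1% of all contigs, and without dry tree 2 1 rose and 2 fell. Without month 1 tree 1 or 2 or dry tree 1 the call of Hev b 4 was lost (edgeR adjusted p = 0.0598, 0.0767 and 0.0688), and without dry tree 3 its log2 fold change was -3.47.

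Contigs of the machinery of gene expression gave calls in both directions. CL1049Contig1, an ATP-dependent RNA helicase, a class that unwinds RNA, had 77.9, 73.8 and 97.4 CPM in dry trees and 259, 248 and 307 CPM in month 1 trees, a log2 fold change of -1.71 (SE 0.23, edgeR adjusted p = 0.00172). CL1075Contig2, the largest subunit of RNA polymerase II, fell by 1.28. CL1038Contig7, similar to nucleolar protein 56, which guides methylation of ribosomal RNA, fell to 16.8, 2.07 and 7.85 CPM in dry trees, against 28.4, 58.0 and 28.5 CPM in month 1 trees (log2 fold change of -2.10, edgeR adjusted p = 0.0359). CL10340Contig1, a mitochondrial ribosomal protein L47, rose to 23.5, 31.4 and 18.6 CPM in dry trees, against 11, 10.9 and 9.91 CPM in month 1 trees (log2 fold change of 1.21). CL1040Contig1, a pentatricopeptide repeat protein, of a class that binds RNA in organelles, fell by 0.89, and CL100Contig13, similar to the Golgi protein CASP, by 1.05. Of 6 tested helicase and polymerase contigs 0 rose and 2 fell, beside 12% and 12.1% of all contigs (median -0.53, and 0.03 with library totals only). Of 16 pentatricopeptide repeat contigs 3 rose and 1 fell (median -0.04, and 0.52 with library totals only). Of 6 ribosome and translation contigs 1 rose and 1 fell, and of 6 vesicle contigs 0 rose and 1 fell (median -0.38, and 0.18 with library totals only). The calls of CL1040Contig1, CL100Contig13 and CL1075Contig2 were lost with library totals only (log2 fold changes of -0.33, -0.50 and -0.69). The call of CL1038Contig7 was lost under that scaling (-1.51), without month 1 tree 1, 2 or 3 (edgeR adjusted p = 0.0609, 0.134 and 0.0728) and without dry tree 3 (0.0816), and its log2 fold change was -2.92 without dry tree 1. CL1040Contig1 also lost its call without month 1 trees 1, 2 and 3 and dry tree 1 (0.0523, 0.109, 0.114 and 0.0606), CL1075Contig2 without month 1 trees 2 and 3 (0.057 and 0.0808), and CL10340Contig1 without month 1 tree 3 (0.0533).

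**Figure D4:**
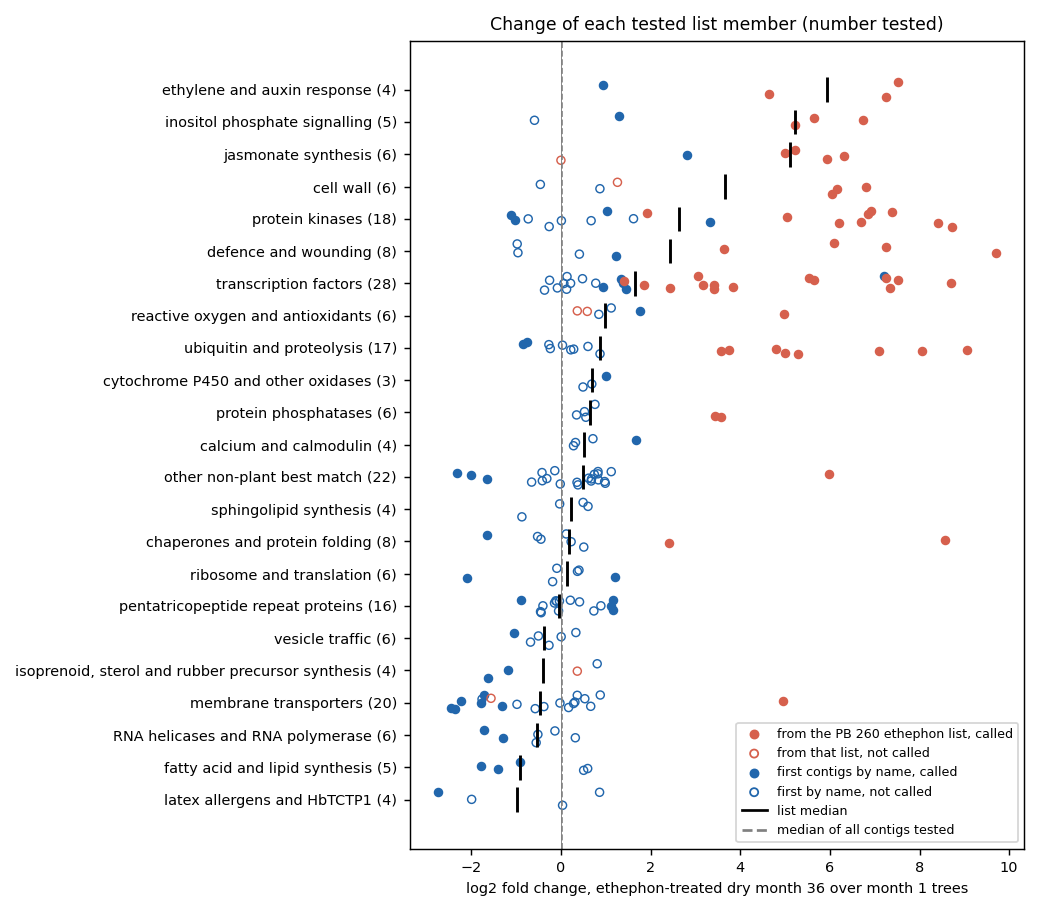
Log2 fold change of each tested member of the lists with at least 3 tested contigs, dry month 36 over month 1 trees on the horizontal axis, with the number tested in brackets. Filled points were called at an adjusted p under 0.05, colours show how the annotation was held, black bars are list medians and the dashed line is the median of all contigs (0.03). Members from the PB 260 ethephon list lie mostly to the right, and the lists at the bottom have medians below 0.

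The contigs of the PB 260 ethephon list were followed as a whole. All 173 had a read pair in the PB217 libraries, and 167 had a higher mean in dry trees than in month 1 trees. Their summed level was 2873, 6705 and 2020 CPM in dry trees 1, 2 and 3 and 270, 337 and 284 CPM in the month 1 trees, so the lowest dry tree was above the highest month 1 tree. In untreated trees the sum was 289, 400 and 379 CPM at month 36 and 189, 295 and 244 CPM at month 1. Of the 173, 96 were tested, and 66 of these passed the filter with no month 1 library at 1 CPM. Among the other 30, 23 rose and 0 fell, beside 12% of all contigs that rose. Dry tree 2 was the highest of the dry trees in 89 of the 96, dry tree 1 in 7 and dry tree 3 in 0. The median log2 change of the 96 was 5.21 and 4.25 without dry tree 2.

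Untreated trees of the same clone also changed between the months. Of 27884 contigs tested in the 3 untreated trees at month 36 against the 3 at month 1, 9831 (35.3%) were called, 5036 higher (18.1%) and 4795 lower (17.2%). That comparison and the one of ethephon-treated trees have no library in common, and its month 36 trees were harvested 16 days before its month 1 trees. Among 27204 contigs tested in both, 2931 rose with ethephon and dryness, and 1363 of them (46.5%) rose and 49 fell in untreated trees, where 17.9% of the contigs rose. The 1363 are 28% of the 4861 that rose in untreated trees. Of 3449 that fell, 1860 (53.9%) fell and 93 rose in untreated trees, where 17.2% fell. The 1860 are 39.7% of the 4683 that fell in untreated trees. Among named contigs, CL29047Contig1 fell in both, with 1.28 to 2.1 CPM in untreated trees at month 36 and 31.7 to 59.2 CPM at month 1 (log2 fold change of -4.80). CL12200Contig2 rose in both, with 16.9, 28.5 and 4.06 CPM at month 36 and 0.0471 to 0.177 CPM at month 1 in untreated trees (log2 fold change of 7.01). WRKY40 contig CL8780Contig3 rose to 1.49, 11.2 and 2.1 CPM in untreated trees at month 36, against 0.0943 to 0.221 CPM at month 1 (log2 fold change of 4.91). The PTI6 contig CL1Contig16711 and the WNK4 contig CL1Contig16293 rose in untreated trees too (log2 fold changes of 5.11 and 4.02). The transporter contig CL1080Contig7 and the RNA helicase contig CL1049Contig1 fell in untreated trees as well, by 1.43 and 1.10. So did CL1080Contig4, CL1080Contig1, CL1080Contig2 and CL10827Contig3 (log2 fold changes of -1.13, -1.47, -1.29 and -0.84).

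The difference between the 2 changes was tested directly over the 12 libraries. It was called for 2013 of 30609 contigs (6.58%), 692 with a change that was higher (2.26%) and 1321 with a change that was lower (4.32%) in the ethephon-treated trees with dryness than in untreated trees. Only the ethephon-treated trees at month 36 are labelled with TPD, so ethephon and dryness cannot be told apart in this difference. The metalloendoproteinase contig CL6409Contig1 had 0.975, 3.47 and 1.48 CPM in untreated trees at month 36 and 0.712, 1.19 and 0.519 CPM at month 1, and its change was higher in the ethephon-treated trees by 5.86 on the log2 scale (SE 0.81, edgeR adjusted p = 0.00892). For the SHPRH contig CL6558Contig2, at 6.50 to 9.66 CPM in untreated trees at month 36 and 7.19 to 9.81 CPM at month 1, it was higher by 3.6 (SE 0.61, edgeR adjusted p = 0.0104). The trans-resveratrol di-O-methyltransferase contig CL1Contig5676 rose in untreated trees too, by 2.45, and the difference was 5.88 (edgeR adjusted p = 0.0141). For squalene epoxidase, CL1037Contig4, at 25.7 to 30.2 CPM in untreated trees at month 36 and 24.8 to 30.7 CPM at month 1, the difference was -1.17 (edgeR adjusted p = 0.0369). That call was made in 3 of the 12 fits without 1 library, and with library totals only the difference was -0.57 (edgeR adjusted p = 0.271). In contrast, for phospholipase A1-Ibeta2, CL1Contig21396, the difference of 4.90 had an adjusted p of 0.0504, and for lMYC5, CL10144Contig1, it was 0.02 (SE 0.88, edgeR adjusted p = 0.993). The difference was not called either for the PTI6 contig CL1Contig16711 (2.12, edgeR adjusted p = 0.243) or the WNK4 contig CL1Contig16293 (4.39, 0.169). Nor was it for CL10567Contig1 (0.24, edgeR adjusted p = 0.809), CL10827Contig3 (-1.39, 0.0762) or the CL1080 contigs named above (edgeR adjusted p of 0.106 to 0.453). Of the 3469 contigs that rose with ethephon and dryness, 444 had a difference called higher and 19 had one called lower. Of the 3474 that fell, 663 had one called lower and 3 had one called higher. These contigs were picked by a change that is part of the difference, so its direction was partly set by that choice. With library totals only the difference was called higher for 4446 and lower for 477 contigs. The count was 5363 without dry tree 3. It was 915, 694 and 421 without month 1 trees 1, 2 and 3, 1011, 700 and 586 without untreated month 36 trees 1, 2 and 3, and 1302, 410 and 430 without untreated month 1 trees 1, 2 and 3.

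**Figure D5:**
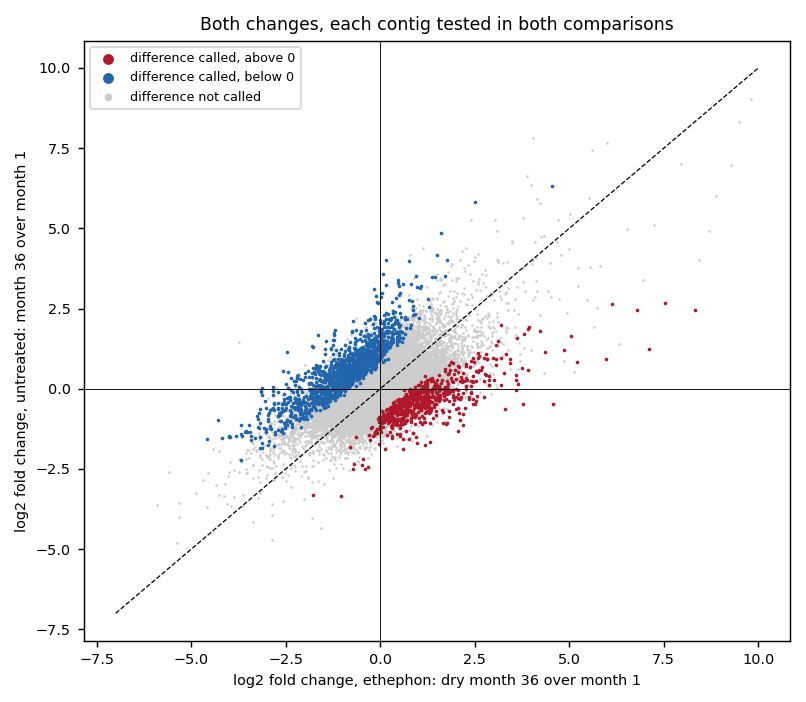
Log2 fold change of each contig tested in both comparisons, with dry month 36 over month 1 trees under ethephon on the horizontal axis and month 36 over month 1 in untreated trees on the vertical axis. Colours mark contigs whose difference was called above 0 or below 0, grey points were not called and the dashed line marks equal changes. Contigs with a called difference lie to either side of that line, 1321 of all 2013 with a difference below 0.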

How the data were processed

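Latex RNA of 12 PB217 libraries, 3 for each of 4 groups, was sequenced as stranded, poly(A)-selected paired-end reads. The deposited count of a contig of the PB 260 transcriptome is how many pairs aligned to it with both reads. Per the methods, the authors trimmed the reads, removed ribosomal reads, aligned with Bowtie2 and dropped reads that hit several contigs equally, so contigs of related genes may be undercounted. TopHat2 is also listed in the submitters' processing notes.

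Contigs with at least 1 CPM in 3 of the 6 libraries were tested with edgeR 4.0.16 (R 4.3.3) by the quasi-likelihood F test with TMM scaling, a prior count of 0.125 and Benjamini-Hochberg adjustment over all of them, and a contig was called at an adjusted p under 0.05. Untreated trees were fitted in their own 6 libraries, and the difference between the changes over all 12. Printed CPM values use TMM over the 12 libraries, and the SE is the log2 fold change divided by the square root of F. P-values weigh the difference between groups against the spread between these samples. Alternatives were other scalings, filters and tests (DESeq2 1.42.0), a replicate block, all 12 libraries and leaving out each library. The 9 PB 260 libraries were not used. Scripts were tested on simulated data.

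Named were tested contigs that the study's text identifies, the 15 largest called changes each way among annotated contigs without overlap, the 5 largest each way among contigs with no annotation held and a mean of at least 5 CPM, the 10 with the highest mean CPM, and the 4 members of highest mean CPM of each list. The text gives a part of these, and exceptions are marked. The members and lists were chosen with earlier results of these data known. The annotation was held for 2153 contigs. No sequences are printed.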

Additional observations from a re-analysis of the deposited data

Results flagged for a closer look

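Changes between month 36 and month 1 were compared between ethephon-treated trees with dryness and untreated trees (edgeR interaction term, 12 PB217 libraries). They differed at an adjusted p under 0.05 for 17 of the 130 named contigs, beside 2013 of all 30609 contigs tested (6.58%). Some of the named contigs were picked by a large change in the ethephon-treated trees. That change is part of the difference, so the count among named contigs was partly set by that choice. Differences are on the log2 scale, as the change in ethephon-treated trees minus the change in untreated trees.

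The call for CL6409Contig1 (metalloendoproteinase 1, 5.86) and CL6558Contig2 (SHPRH, 3.6) was made in all 12 fits that left out 1 library. CL1Contig5676 (trans-resveratrol di-O-methyltransferase, 5.88) and CL1Contig14251 (protein phosphatase 2C 10, 3.30) were called in 11 of the 12, and CL10340Contig1 (mitochondrial ribosomal protein L47, 1.31) in 10.

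Other differences above 0 rested on more of the libraries. CL1Contig4306 (protein phosphatase 2C 10, 2.62) was called in 7 of the 12 fits, CL1Contig10832 (bHLH147, 1.48) in 4, CL8139Contig1 (ERF112, 4.84) in 3 and CL102Contig4 (ribosomal protein L38, 1.0) in 3. CL102Contig4 had 114, 106 and 100.2 CPM in dry trees and 65.2, 103 and 81.1 CPM in month 1 trees, against 56.1, 57.4 and 59.4 CPM in untreated trees at month 36 and 103, 85.4 and 78.4 CPM at month 1.

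CL1Contig6734 (no annotation held, 6.84) was called in 6 of the 9 fits that tested it, and CL1Contig5001 (mitogen-activated protein kinase kinase kinase A, 6.57), CL15202Contig1 (AUX22, 4.01) and CL34416Contig1 (CVP2, 5.52) in 0 of 9. All 4 were at or below 0.757 CPM in every untreated tree.

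Below 0 were CL1Contig10915 (no annotation held, -2.45), called in 5 of the 12 fits, CL1037Contig4 (squalene epoxidase, -1.17) in 3, CL1037Contig1 (squalene epoxidase, -1.18) in 2 and CL103Contig4 (acyl carrier protein, -1.04) in 2. With library totals only, the differences were -0.57 for both squalene epoxidase contigs and -0.47 for CL103Contig4, with edgeR adjusted p of 0.271 for CL1037Contig4, 0.319 for CL1037Contig1 and 0.164 for CL103Contig4.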

How the results depend on the processing

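The 6943 calls between dry month 36 and month 1 trees became 10572 when all 12 libraries shared 1 estimate of the spread and 10817 with library totals only. When 1 library was left out and the filter applied anew, they ranged from 2364 to 7161. Without dry tree 2 and with the same contigs tested, they numbered 7844. They numbered 5026 to 10076 with a minimum of 5 CPM, no filter, DESeq2 size factors, DESeq2's Wald test or edgeR's exact test. The calls between untreated groups stayed within 1.5 times 9831 under each alternative run, at 6554 to 11888. The 2013 called differences became 3714 with DESeq2's Wald test, 4923 with library totals only (90.3% higher in place of 34.4%) and 4522 with no filter, and ranged from 410 to 5363 when 1 library was left out. The cause was not tested.

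Same-numbered trees did not deviate together, with correlations of deviations of -0.154, -0.347 and -0.000707 in ethephon-treated and -0.111, 0.0723 and -0.0441 in untreated pairs, and dry tree 2 correlated best with month 1 tree 1 (0.385). Replicate numbers were therefore not taken as pairs. With the number as a replicate block 4156 contigs were called in ethephon-treated trees, 9094 in untreated trees and 1485 in the difference.

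Among 130 named contigs 1 changed sign while called: CL1409Contig4 was at -0.87 (edgeR adjusted p = 0.0471) without dry tree 2 with the same contigs tested, in place of 0.37. Of the 75 named contigs called, 52 lost the call in none of the fits without 1 library, but 30 were not tested when a dry tree was left out because the filter needs 3 libraries. With library totals only 9 of the 130 lost the call and 17 gained it. DESeq2's size factors changed no call among them. Leaving out dry tree 2 with the same contigs tested ended 0 of their calls and added 9 besides that of CL1409Contig4. With 3 trees a group and dry trees that vary more than month 1 trees (median SD of log2 CPM 0.328 against 0.214), smaller changes may go uncalled.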

Other observations

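Contigs whose best match is not a plant were followed as signs of other organisms in latex. Of 80 such contigs other than powdery mildew 57 had a read pair, and their summed level was 143 to 195 CPM in dry trees and 123 to 179 CPM in month 1 trees, with 1 of 22 tested contigs rising and 3 falling, or 6 rising and 3 falling without dry tree 2. Of 62 contigs that match powdery mildew 5 had a read pair, at a summed 1.42 to 5.93 CPM in dry trees and 2.99 to 3.77 CPM in month 1 trees. The ranges overlap in both cases, and over all contigs tested 12% rose and 12.1% fell.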
